A study of Mus musculus with 8 samples.

Results

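The genes described here encode the coats, the small GTPases, the cargo receptors and the p24 proteins of the COPI and COPII vesicles that carry proteins between the endoplasmic reticulum (ER) and the Golgi apparatus. They were chosen by gene symbol, with earlier results of these data known. Every gene of the coatomer, ARF, SAR1, SEC13, SEC16, SEC22, SEC23, SEC24, SEC31, KDEL receptor, p24 (Tmed), Lman1 and Mcfd2 names was taken, which gave 47 genes of 36432 in the files. RNA came from the whole pancreas of 8 adult mice of mixed strain, 6 to 8 weeks old. The 4 libraries labelled Ptf1a-Cre +/KI; Gata6 lox/lox came from mice with both Gata6 alleles floxed, and the 4 control libraries came from mice labelled Ptf1a-Cre +/KI with no floxed Gata6 named. All 8 mice thus carried Cre at 1 copy of Ptf1a, a gene of pancreatic progenitors and acinar cells, so the loss of Gata6 by design affects the cells that had expressed Cre, while the tissue sequenced held all cell types of the organ. The comparison asks how the adult pancreas differs in expression after deletion of Gata6, which encodes a zinc-finger transcription factor.

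COPII vesicles bud from ER exit sites. The GTPase SAR1 recruits the inner coat of SEC23 and SEC24, SEC24 binds cargo, and SEC13 with SEC31 forms the outer cage. COPI vesicles carry escaped ER proteins, cargo receptors and Golgi enzymes backwards, and the heptameric coatomer is recruited as a block by ARF GTPases. p24 proteins and lectin-type receptors travel in both directions and load selected cargo. In the pancreas the acinar cell exports large amounts of digestive enzymes along this route.

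Levels are given as rescaled FPKM, which is the deposited gene FPKM (fragments normalised to gene length and library) divided by 100000 in every library. The unit corrects for gene length, so levels can be set beside each other between genes, but it is not a fixed number of transcripts. Fold changes are differences of mean log2(rescaled FPKM + 1), labelled Gata6 lox/lox minus control, and understate changes of low genes. Errors are SD with n = 4 per group for levels and SE for fold changes, and adjusted p-values are those of limma over all 11860 genes whose mean reached 1 rescaled FPKM. The values implied 5326087 to 8958089 fragments in the labelled libraries and 6731360 to 7918025 in the controls. Entries flagged as having too many fragments for an estimate add nothing to these totals, which are therefore not the full depth. Such entries numbered 0, 6, 5 and 6 in labelled libraries 1 to 4 and 8, 8, 6 and 7 in controls 1 to 4.

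Gata6 itself (chr18:11052508-11085633, mm9) had 4.81, 5.12, 4.90 and 4.12 rescaled FPKM in labelled libraries 1 to 4, against 2.76, 2.12, 2.62 and 2.45 in controls 1 to 4. Its level was higher in the libraries labelled as lacking it (log2 fold change 0.72 ± 0.11 SE, adjusted p 0.0443, limma, exact two-sided permutation p 0.029, the smallest possible with 4 against 4), and the call was lost in 19 of the 22 alternatives that could be run for Gata6, including 7 of the 8 that leave out 1 library (adjusted p 0.0159 to 0.631 over the 22). A value for the whole gene does not resolve a floxed exon, so it does not check the deletion, and the groups are called labelled libraries and controls below. Acinar enzyme genes differed widely among the labelled libraries. Of 31 listed, 30 were found and 22 had an estimate. The rest were flagged in at least 1 library as having too many fragments, so the sums are not all enzyme RNA. As deposited, the 22 with an estimate summed to 5332, 259969, 55374 and 343405 rescaled FPKM in labelled libraries 1 to 4, and the control sums ran from 461546 to 661722. Of the 21 enzyme genes tested, 19 had negative fold changes and none passed the adjusted threshold, whereas 10 had an unadjusted p under 0.05 in limma. Markers of other cell types were summed in the same way. Adipocyte markers reached 561 to 872 in the labelled libraries against 107 to 313 in the controls, with 12 of 12 tested markers positive. Macrophage and neutrophil markers reached 260 to 1043 against 136 to 237 (13 of 14 positive), fibroblast markers 408 to 1393 against 243 to 347 (12 of 12), islet markers 764 to 5975 against 560 to 1479 (10 of 10) and lymphocyte markers 93.4 to 411 against 43.6 to 176 (7 of 7). Duct markers reached 138 to 271 against 178 to 234, and endothelial markers 29.9 to 40.5 against 35.7 to 45.3. No marker was at 0 in all libraries. The part of these lists in the results below was not tested, and in bulk tissue fewer acinar cells and less RNA per acinar cell cannot be told apart. Titles begin with 3 different prefixes of no stated meaning. Labelled libraries 1, 3 and 4 share the prefix BKD with control 1, labelled library 2 has BSH, and controls 2 to 4 have ASK. Xist was at 32.0 in labelled library 2 and 17.3 to 26.1 in controls 2 to 4, and at 0 to 0.00932 in the other 4 libraries, so sex, prefix and group are entangled.

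No COPI or COPII gene passed the adjusted threshold. Of the 47 genes, 44 reached the expression minimum, and 0 of these were called, against 49 of all 11860 genes tested (0.413%, of which 0.219% higher and 0.194% lower). At an unadjusted p under 0.05, 12 of the 44 (27.3%) stood out, close to the 30.1% of all genes. By direction, 10 of the 44 were lower, beside 12.2% of all genes, and 2 were higher, beside 17.9%. Fold changes were negative for 29 of 44 members (65.9%) and for 42.1% of all genes, and their median was -0.19 beside 0.099 for all genes. These signs hold for the values as deposited, and with libraries scaled to an equal sum outside the enzymes or to the implied fragment totals the median of the members became 0.70 or 1.03, beside 0.86 or 1.13 for all genes. The members' median thus lay below that of all genes under both of these scalings, with 28 and 26 of the 44 members below it. Before centring, Cope, Copz2, Mcfd2, Tmed3, Tmed6 and Tmed11 stayed negative with equal sums, and Copz2, Mcfd2, Tmed6 and Tmed11 with implied totals. Implied totals called 32 members higher and Tmed11 lower, when 5436 of all 11860 genes were called higher and 25 lower. The 4 labelled libraries lay entirely below the 4 controls for 5 members (Copz2, Sar1a, Sec13, Mcfd2 and Tmed11), or 11.4% against 7.62% of all genes, and entirely above for none of the 44, against 10.9% of all genes. The plot of fold changes by role shows a few genes far below the rest.

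**Figure D1:**
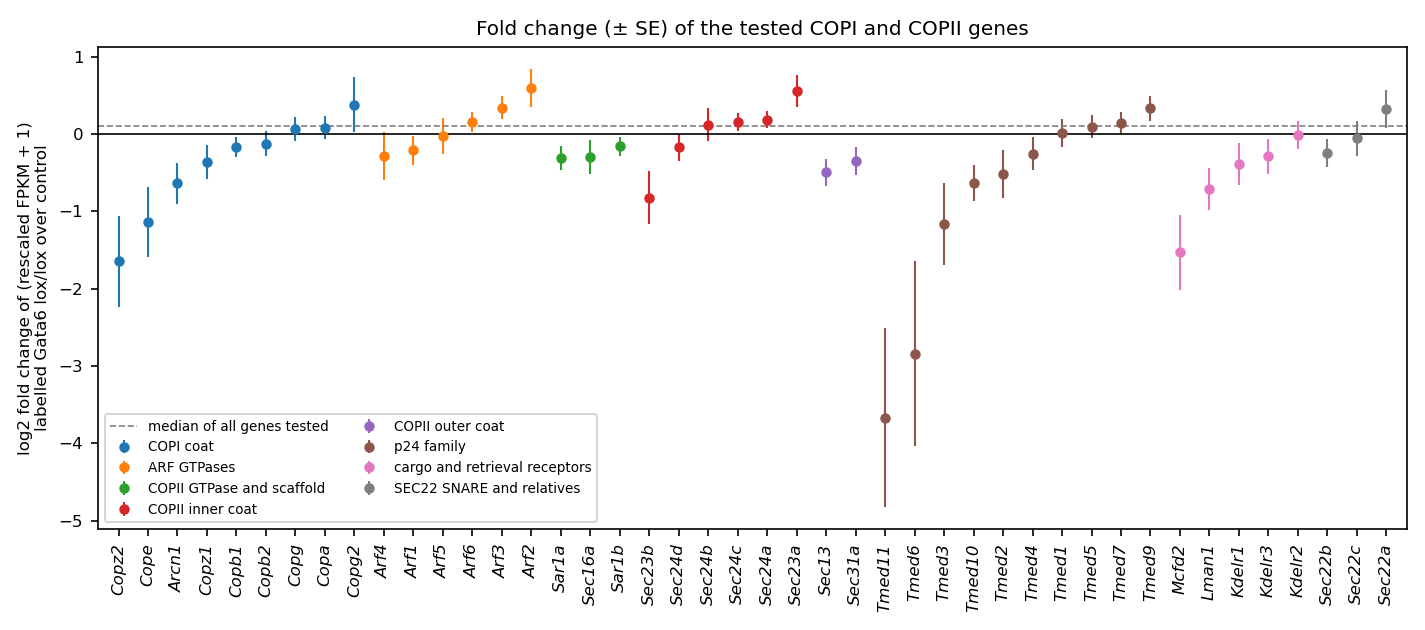
Log2 fold change (dots) with SE (bars) of the 44 tested genes, labelled Gata6 lox/lox over control, on the log2(rescaled FPKM + 1) scale, coloured by role. The dashed line is the median of all genes tested, 0.099. Tmed11 and Tmed6 lie lowest at -3.67 and -2.84, and with libraries scaled to equal sums or implied totals every point moves upward, so that 6 or 4 genes stay below 0.

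The COPI coat was uneven. The subunits ε (Cope), ζ2 (Copz2) and δ (Arcn1) had lower values in several labelled libraries on the values as deposited, while the fold changes of α (Copa), β (Copb1), β′ (Copb2) and γ (Copg) ran from -0.16 to 0.085. Copz2 (chr11:96711184-96722517), a paralog of the ζ subunit, had 7.09, 43.3, 17.5 and 64.2 rescaled FPKM in labelled libraries 1 to 4, against 84.4, 82.7, 79.7 and 70.04 in controls 1 to 4. Every labelled library lay below every control, labelled library 1 lowest by far, and the fold change was -1.64 ± 0.59 SE with adjusted p 0.128. Cope (chr8:72826417-72836892), the subunit of the highest level in the coat, had 22.1, 71.6, 44.03 and 113 rescaled FPKM in labelled libraries 1 to 4, against 138, 122, 118 and 98.9 in controls 1 to 4. Labelled libraries 1 and 3 were lowest and labelled library 4 lay among the controls (log2 fold change -1.14 ± 0.46 SE, adjusted p 0.146). Arcn1 averaged 21.2 ± 7.71 rescaled FPKM in the labelled libraries and 32.2 ± 4.04 in the controls, with a log2 fold change of -0.64 ± 0.27 SE and an adjusted p of 0.156. Copz1, the other ζ subunit, averaged 20.9 ± 5.15 rescaled FPKM in the labelled libraries and 26.8 ± 4.46 in the controls (log2 fold change -0.36, adjusted p 0.272), and the groups overlapped. The larger subunits did not pass the test, with adjusted p-values of 0.399 for Copb1 to 0.765 for Copg. Copa averaged 22.5 ± 2.64 rescaled FPKM in the labelled libraries and 21.1 ± 1.82 in the controls, Copb1 11.7 ± 0.926 rescaled FPKM in the labelled libraries and 13.2 ± 0.950 in the controls, and Copb2 15.3 ± 1.85 rescaled FPKM in the labelled libraries and 16.8 ± 2.31 in the controls. Copg averaged 11.7 ± 2.18 rescaled FPKM in the labelled libraries and 10.997 ± 0.639 in the controls. The second γ subunit, Copg2 (chr6:30697554-30846794), had the most positive fold change of the coat, 0.38 ± 0.36 SE, with 6.85, 5.51, 6.82 and 8.68 rescaled FPKM in labelled libraries 1 to 4, against 12.1, 3.56, 2.91 and 4.75 in controls 1 to 4. Control 1 was the highest of all 8 libraries and controls 2 and 3 the lowest, so the groups overlapped widely (adjusted p 0.459). Copg2 overlaps Mest, Copa overlaps Ncstn and Copg overlaps Gm16723 in the annotation, and the source of fragments in shared bases is uncertain for these genes.

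The sequences around the transcription starts of both ζ genes are shown because Copz2 had the lowest fold change of the coat and Copz1 is its paralog. Each is the RefSeq window from 250 bases before to 50 after the start on GRCm38.p6, 5′ to 3′ on the gene's strand, chr11:96849626-96849925 on the plus strand for Copz2 and chr15:103272638-103272937 on the plus strand for Copz1. Capitals mark CACCTG on either strand, a form of the E-box bound by basic helix-loop-helix proteins such as PTF1A, which was picked after the values were seen. Copz2 holds 1 match and Copz1 none.
Copz2: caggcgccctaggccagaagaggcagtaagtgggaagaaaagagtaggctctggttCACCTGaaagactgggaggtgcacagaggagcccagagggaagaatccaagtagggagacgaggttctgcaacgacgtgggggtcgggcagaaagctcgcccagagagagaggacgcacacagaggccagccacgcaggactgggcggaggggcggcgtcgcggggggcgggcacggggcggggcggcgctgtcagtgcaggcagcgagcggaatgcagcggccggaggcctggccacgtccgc
Copz1: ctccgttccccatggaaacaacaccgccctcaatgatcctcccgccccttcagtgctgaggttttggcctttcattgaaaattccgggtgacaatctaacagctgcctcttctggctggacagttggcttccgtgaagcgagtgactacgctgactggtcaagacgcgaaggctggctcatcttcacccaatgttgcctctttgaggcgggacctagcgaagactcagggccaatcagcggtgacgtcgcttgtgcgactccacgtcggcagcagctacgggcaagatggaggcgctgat
CACCTG was found in 14 of 40 members with a RefSeq window (35.0%), against 22.6% of 27025 genes with one. Their fold changes were -2.84 for Tmed6, -1.64 for Copz2, -0.38 for Kdelr1, -0.34 for Sec31a, -0.30 for Sec16a and -0.25 for Tmed4. Sec24d was at -0.17, Sar1b at -0.16, Tmed1 at 0.021, Copa at 0.085, Sec22a at 0.32, Tmed9 at 0.34 and Arf2 at 0.60. Sec16b was untested. The windows of Mcfd2, Tmed3, Cope and Sec23b held no match, although their fold changes were among the lowest. A match of 6 letters is a description of the sequence and does not mark a binding site.

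The ARF GTPases, which recruit coatomer and other coats when bound to GTP, showed no common direction, with 3 negative and 3 positive fold changes and a median of 0.066. Arf4 (chr14:27457560-27484570) had the highest mean and the most negative fold change of the family. It had 36.03, 47.4, 58.2 and 99.3 rescaled FPKM in labelled libraries 1 to 4, against 67.97, 58.1, 72.9 and 75.3 in controls 1 to 4. Labelled library 4 was the highest of all 8 libraries and labelled library 1 the lowest, so the groups overlapped (log2 fold change -0.28 ± 0.31 SE, adjusted p 0.539). Arf1, the main GTPase of COPI coat assembly, averaged 48.5 ± 8.13 rescaled FPKM in the labelled libraries and 55.8 ± 4.81 in the controls with an adjusted p of 0.444. Arf2 (chr11:103828053-103846651) had the most positive fold change, 0.60 ± 0.25 SE, with 4.36, 3.66, 4.77 and 4.63 rescaled FPKM in labelled libraries 1 to 4, against 2.76, 1.48, 1.90 and 4.77 in controls 1 to 4. Control 4 was level with labelled library 3, the highest labelled value, and the values rest on 1.63 to 51.04 implied fragments (unadjusted p 0.0423, adjusted p 0.156). Arf3 averaged 16.02 ± 2.10 rescaled FPKM in the labelled libraries and 12.4 ± 1.42 in the controls, Arf5 23.8 ± 7.53 rescaled FPKM in the labelled libraries and 23.6 ± 2.73 in the controls, and Arf6, which works mainly at the plasma membrane and in endosomes, 11.1 ± 1.41 rescaled FPKM in the labelled libraries and 9.77 ± 0.560 in the controls. Arf4 overlaps Pde12 and Arf5 overlaps Gcc1, and no ARF gene passed the test.

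Among the genes that start a COPII coat, Sar1a stood lower in each labelled library as deposited, and higher on average with equal sums or implied totals. Sar1a (chr10:61143058-61156043), which encodes a GTPase that opens coat assembly, had 16.96, 18.7, 20.9 and 23.05 rescaled FPKM in labelled libraries 1 to 4, against 26.1, 26.4, 23.2 and 23.3 in controls 1 to 4. The groups did not overlap, with labelled library 4 just under control 3, and the difference was small (log2 fold change -0.31 ± 0.16 SE, adjusted p 0.208). Its sister gene Sar1b had 7.99, 7.37, 7.63 and 9.38 rescaled FPKM in labelled libraries 1 to 4, against 8.52, 8.86, 9.77 and 9.31 in controls 1 to 4. Labelled library 4 lay among the controls, the other 3 labelled libraries below all of them, and the adjusted p was 0.392. Sec16a, the scaffold of ER exit sites, averaged 8.21 ± 2.69 rescaled FPKM in the labelled libraries and 10.02 ± 1.30 in the controls (adjusted p 0.356). Sec16b, a shorter relative, averaged 1.15 ± 0.401 rescaled FPKM in the labelled libraries and 0.826 ± 0.0716 in the controls and did not reach the expression minimum.

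The inner coat paralogs of SEC23, the GTPase-activating subunit, pointed in opposite directions. Sec23b (chr2:144381965-144416485), the form with the higher level, had 5.10, 13.3, 7.45 and 18.8 rescaled FPKM in labelled libraries 1 to 4, against 20.7, 16.7, 18.8 and 17.7 in controls 1 to 4. Labelled libraries 1 and 3 were lowest, and labelled library 4 lay within the range of the controls (log2 fold change -0.82 ± 0.35 SE, adjusted p 0.158). Sec23a (chr12:60059370-60113004) had 2.88, 1.87, 3.62 and 2.10 rescaled FPKM in labelled libraries 1 to 4, against 1.01, 1.05, 2.07 and 1.72 in controls 1 to 4. Labelled libraries 1, 3 and 4 were above every control and labelled library 2 was under control 3 (log2 fold change 0.55 ± 0.21 SE, adjusted p 0.135), on 2.41 to 143 implied fragments. With libraries scaled to equal sums or to implied totals, the fold changes of both paralogs shifted upward together, so the contrast between them is best read from their ratio, given below. The 4 SEC24 genes, which encode the cargo-binding subunit, did not pass the test. Sec24a averaged 3.01 ± 0.234 rescaled FPKM in the labelled libraries and 2.53 ± 0.267 in the controls, Sec24b 7.71 ± 1.66 rescaled FPKM in the labelled libraries and 7.04 ± 2.03 in the controls, and Sec24c 7.27 ± 0.199 rescaled FPKM in the labelled libraries and 6.44 ± 0.822 in the controls. Sec24d averaged 5.64 ± 1.45 rescaled FPKM in the labelled libraries and 6.36 ± 0.743 in the controls, and the adjusted p-values of the 4 genes were 0.258, 0.702, 0.380 and 0.510. Sec24d overlaps Mettl14.

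The outer coat genes had lower values as deposited in the labelled libraries, with positive fold changes under equal sums or implied totals. Sec13 (chr6:113678061-113690737), which encodes a cage protein that also serves in the nuclear pore, had 12.4, 17.3, 15.2 and 18.9 rescaled FPKM in labelled libraries 1 to 4, against 20.8, 25.8, 23.2 and 21.03 in controls 1 to 4. The labelled libraries lay below all controls with a narrow gap (log2 fold change -0.50 ± 0.17 SE, unadjusted p 0.0205, adjusted p 0.124). Sec31a, its partner in the cage, had 9.60, 14.03, 10.005 and 14.3 rescaled FPKM in labelled libraries 1 to 4, against 17.3, 16.1, 14.1 and 13.8 in controls 1 to 4. Labelled libraries 2 and 4 lay within the control range (log2 fold change -0.34 ± 0.18 SE, adjusted p 0.215). Sec31b averaged 0.838 ± 0.419 rescaled FPKM in the labelled libraries and 0.497 ± 0.412 in the controls, under the expression minimum, and overlaps Ndufb8.

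The largest differences were in the p24 family, type I membrane proteins that form mixed complexes in early secretory membranes. Tmed6 (chr8:109585384-109589544), a member of the γ subfamily, was the most abundant of the 47 genes, with a control mean ranked 177 of 11860 genes. It had 3.88, 204, 33.3 and 334 rescaled FPKM in labelled libraries 1 to 4, against 501, 410.4, 441 and 329 in controls 1 to 4. The labelled libraries spread widely, 1 and 3 far below the controls, 2 below them, and 4 just above the lowest control. Its log2 fold change was -2.84 ± 1.19 SE, with an unadjusted p of 0.0430 and an adjusted p of 0.157. Tmed11 (chr5:109206254-109224382), of the α subfamily, had 0.119, 45.2, 1.21 and 30.5 rescaled FPKM in labelled libraries 1 to 4, against 117, 108, 102 and 69.96 in controls 1 to 4. All labelled libraries lay below all controls, and labelled libraries 1 and 3 were near 0, on as few as 3 implied fragments in labelled library 1. The log2 fold change was -3.67 ± 1.16 SE, and the adjusted p 0.114 was the lowest of the 44 members. Tmed3 (chr9:89594041-89599881), of the γ subfamily, had 15.9, 52.5, 32.95 and 112 rescaled FPKM in labelled libraries 1 to 4, against 126, 92.4, 93.04 and 77.4 in controls 1 to 4. The labelled libraries stood in the same order as for Tmed6, with library 4 inside the control range (log2 fold change -1.16 ± 0.53 SE, adjusted p 0.175). As deposited, the summed level of the 11 p24 genes was 132, 462, 194 and 679.9 in labelled libraries 1 to 4, against 966, 794, 820 and 646 in controls 1 to 4, and labelled library 4 was above control 4.

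The ubiquitous core of the family varied less. Tmed10 (p23, δ subfamily) averaged 26.97 ± 7.61 rescaled FPKM in the labelled libraries and 41.5 ± 6.91 in the controls with a log2 fold change of -0.63 ± 0.24 SE and an adjusted p of 0.134. Tmed2 (β subfamily) averaged 80.1 ± 32.99 rescaled FPKM in the labelled libraries and 108 ± 13.8 in the controls (log2 fold change -0.51, adjusted p 0.273). Tmed9 (chr13:55694313-55699027), of the α subfamily, had the most positive fold change of the family, 0.34 ± 0.16 SE, with 13.3, 13.2, 17.2 and 17.8 rescaled FPKM in labelled libraries 1 to 4, against 13.5, 10.2, 11.4 and 12.6 in controls 1 to 4. The groups overlapped through control 1, and the adjusted p was 0.197. Tmed4 averaged 10.8 ± 2.66 rescaled FPKM in the labelled libraries and 13.01 ± 2.92 in the controls, Tmed5 5.11 ± 0.761 rescaled FPKM in the labelled libraries and 4.71 ± 0.743 in the controls, and Tmed7 8.75 ± 1.35 rescaled FPKM in the labelled libraries and 7.76 ± 0.712 in the controls. Tmed1 averaged 2.32 ± 0.791 rescaled FPKM in the labelled libraries and 2.23 ± 0.329 in the controls. Tmed8 was untested at 1.11 ± 0.404 rescaled FPKM in the labelled libraries and 0.643 ± 0.107 in the controls, although its 4 labelled values, 1.68, 0.873, 1.09 and 0.786, lay above its 4 control values, 0.580, 0.691, 0.533 and 0.769. Tmed1 overlaps Dnm2, Tmed5 overlaps Mtf2 and Tmed7 overlaps Ticam2.

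**Figure D2:**
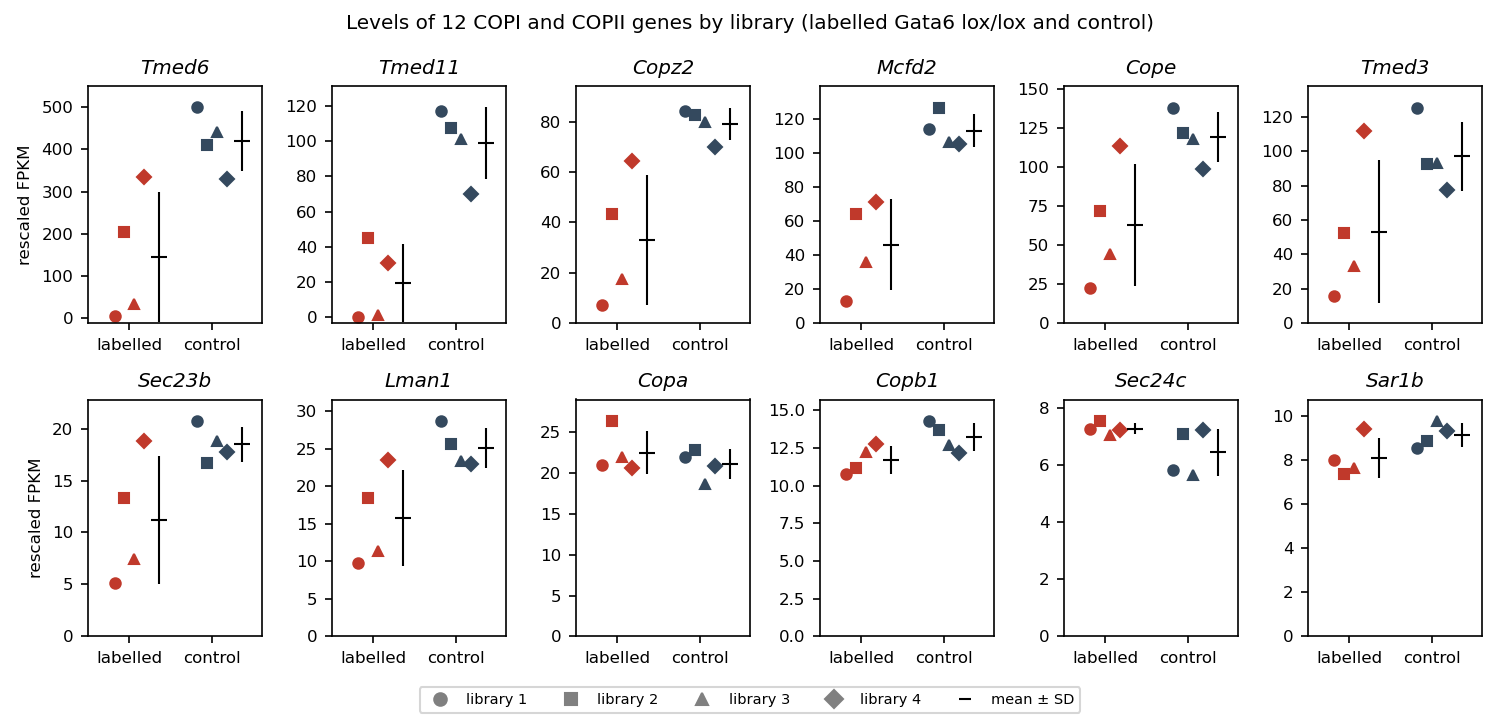
Rescaled FPKM by library for 12 genes, labelled Gata6 lox/lox left and control right, with group means and SD (n = 4 each). In the top row and in Sec23b and Lman1, labelled libraries 1 and 3 are the lowest points on the values as deposited. The groups do not overlap in Tmed11, Copz2 and Mcfd2 and overlap in the other genes shown.

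The promoter window of Tmed6 is shown as the most abundant of these genes and the one with the most CACCTG matches among the 3 windows printed. It lies at chr8:107065595-107065894 on the minus strand (GRCm38.p6, RefSeq, written 5′ to 3′ on the gene's strand), and capitals mark its 3 matches to CACCTG on either strand.
Tmed6: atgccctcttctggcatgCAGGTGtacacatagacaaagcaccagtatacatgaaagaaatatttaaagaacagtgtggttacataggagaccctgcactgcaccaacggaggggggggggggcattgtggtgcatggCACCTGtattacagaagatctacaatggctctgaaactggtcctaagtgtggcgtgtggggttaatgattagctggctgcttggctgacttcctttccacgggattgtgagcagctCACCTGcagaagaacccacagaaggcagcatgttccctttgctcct

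The receptors that load or retrieve single cargo proteins also had lower values as deposited, with negative fold changes for 5 of 5 and a median of -0.38, although Mcfd2 alone stayed negative before centring with equal sums or implied totals. Mcfd2 (chr17:87653998-87665275) encodes a calcium-binding partner of the lectin LMAN1, and the pair carries blood coagulation factors out of the ER. Mcfd2 had 12.96, 63.96, 35.8 and 71.1 rescaled FPKM in labelled libraries 1 to 4, against 114, 127, 107 and 105 in controls 1 to 4. Every labelled library lay below every control, with labelled library 1 lowest (log2 fold change -1.53 ± 0.49 SE, unadjusted p 0.0132, adjusted p 0.114). Lman1, the lectin itself, had 9.82, 18.5, 11.4 and 23.6 rescaled FPKM in labelled libraries 1 to 4, against 28.7, 25.6, 23.3 and 22.9 in controls 1 to 4. Labelled library 4 lay within the control range (log2 fold change -0.71 ± 0.27 SE, adjusted p 0.138). The KDEL receptors return chaperones with a C-terminal KDEL signal to the ER. Kdelr1 averaged 43.5 ± 14.1 rescaled FPKM in the labelled libraries and 55.8 ± 12.1 in the controls (log2 fold change -0.38, adjusted p 0.345). Kdelr2 had the fold change closest to 0 of all members, -0.013 ± 0.19 SE, with 13.2, 14.5, 16.8 and 19.996 rescaled FPKM in labelled libraries 1 to 4, against 20.1, 15.4, 15.8 and 13.6 in controls 1 to 4. The groups covered nearly the same range. Kdelr3 averaged 7.08 ± 2.54 rescaled FPKM in the labelled libraries and 8.58 ± 1.26 in the controls (adjusted p 0.396) and overlaps Ddx17.

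Of the SEC22 genes, Sec22b encodes the SNARE that works between ER and Golgi, and Sec22a and Sec22c encode relatives without the SNARE motif. Sec22b had 9.01, 13.5, 11.9 and 14.1 rescaled FPKM in labelled libraries 1 to 4, against 17.5, 12.5, 13.05 and 14.7 in controls 1 to 4. Labelled libraries 1 and 3 lay below all controls and labelled libraries 2 and 4 within their range (log2 fold change -0.24 ± 0.18 SE, adjusted p 0.376). Sec22a had 5.37, 5.60, 5.89 and 4.19 rescaled FPKM in labelled libraries 1 to 4, against 5.11, 2.13, 5.91 and 3.68 in controls 1 to 4. Control 2 was the lowest of all 8 libraries (log2 fold change 0.32 ± 0.25 SE, adjusted p 0.377). Sec22c averaged 1.11 ± 0.396 rescaled FPKM in the labelled libraries and 1.21 ± 0.565 in the controls, with a fold change of -0.053.

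Ratios of related genes within a library do not depend on how libraries are scaled to each other. For 14 pairs, picked after the values were seen and therefore given with no test, 6 had all 4 labelled libraries below all 4 controls. Some pairs set a gene of low fold change over a relative of high fold change, as in Tmed11 over Tmed9, which favours separation. The share among other gene pairs was not computed, so the count describes these pairs only. The ζ subunits gave Copz2 over Copz1 of 0.468, 2.13, 0.851 and 2.32 in labelled libraries 1 to 4, against 2.63, 2.86, 3.58 and 2.91 in controls 1 to 4. In labelled libraries 1 and 3 Copz1 was the more abundant ζ gene, while Copz2 was in the other 6 libraries. The SEC23 pair gave Sec23b over Sec23a of 1.77, 7.10, 2.06 and 8.95 in labelled libraries 1 to 4, against 20.5, 15.9, 9.08 and 10.3 in controls 1 to 4. The gap was narrow, since labelled library 4 came close to control 3. Mcfd2 over Lman1 was 1.32, 3.46, 3.13 and 3.02 in labelled libraries 1 to 4, against 3.97, 4.95, 4.56 and 4.57 in controls 1 to 4, so the partners did not keep 1 proportion. In the p24 family, Tmed6 over Tmed3 was 0.243, 3.88, 1.01 and 2.99 in labelled libraries 1 to 4, against 3.99, 4.44, 4.74 and 4.25 in controls 1 to 4. Tmed11 over Tmed9 had a median of 0.892 in the labelled libraries and 8.82 in the controls, and Kdelr1 over Kdelr2 of 2.67 in the labelled libraries and 3.36 in the controls. Labelled library 2 came close to control 1 for Tmed6 over Tmed3, as the plot of ratios shows. Cope over Copa had a median of 2.36 in the labelled libraries and 5.81 in the controls and overlapped through labelled library 4. Sar1a over Sar1b, Copb1 over Copb2, Tmed10 over Tmed2, Sec13 over Sec31a, Sec24d over Sec24c, Copg2 over Copg and Arf4 over Arf1 also overlapped between groups. The medians of Tmed10 over Tmed2, the core pair of the p24 complex, were 0.334 in the labelled libraries and 0.380 in the controls. Those of Copb1 over Copb2 were 0.762 in the labelled libraries and 0.775 in the controls.

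In the 6 pairs without overlap, labelled library 1 was lowest, and labelled library 3 next lowest except for Mcfd2 over Lman1. A smaller difference is thus largely built in when both are left out, and is given as a description only. Without labelled libraries 1 and 3, the mean log2 ratio of labelled minus control libraries was smaller in size for each of these 6 pairs. For example, the difference was -0.42 in place of -1.33 for Copz2 over Copz1 and -0.35 in place of -1.74 for Tmed6 over Tmed3. Within the BKD titles (3 labelled libraries and 1 control) these differences were -1.44 and -2.14, and among the titles with ASK or BSH (1 labelled library and 3 controls) they were -0.54 and -0.20.

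**Figure D3:**
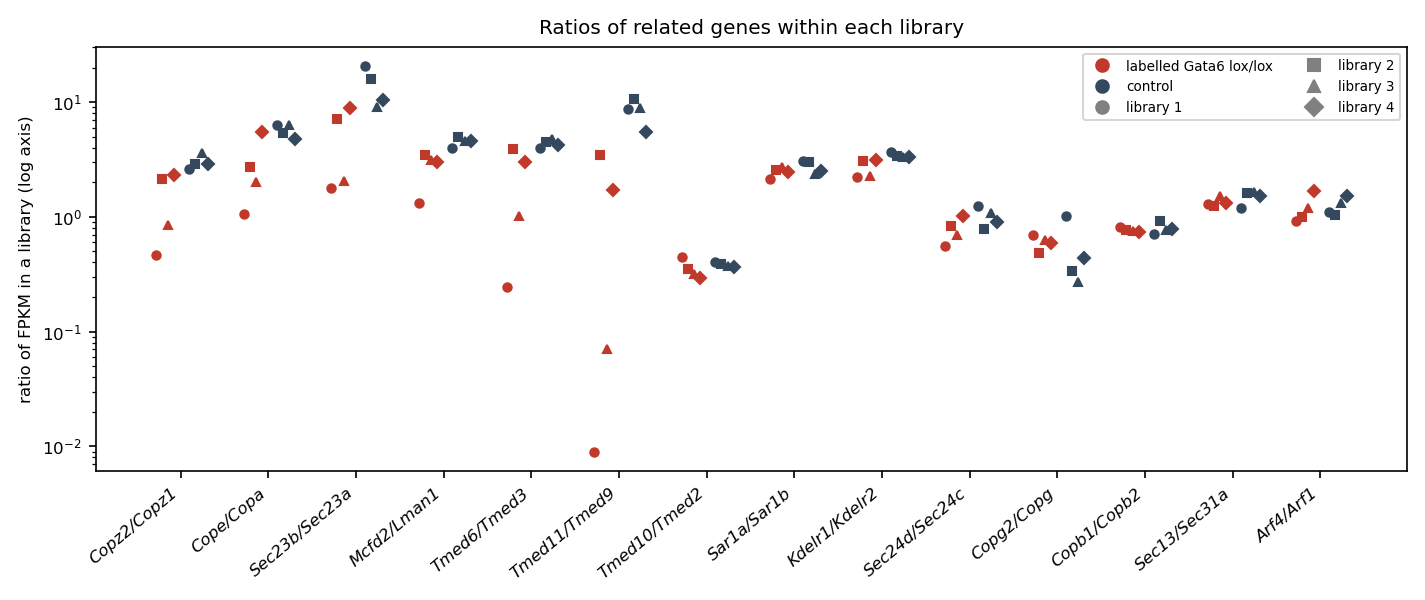
Ratio of the FPKM of related genes in each library (log axis), labelled Gata6 lox/lox left and control right in each pair. Groups do not overlap in 6 of 14 pairs, which were picked after the values were seen. The lowest ratio is in labelled library 1 in each of the 6, and groups overlap in pairs such as Copb1/Copb2.

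The labelled libraries formed no uniform group. The median log2 difference of the 44 members from the control mean was -0.47, -0.22, -0.23 and 0.055 in labelled libraries 1 to 4, against 0.17, -0.036, -0.041 and -0.095 in controls 1 to 4. Labelled library 4 thus lay inside the control range on this measure. For the acinar enzymes the same medians were -7.00, -1.11, -3.22 and -0.68 in labelled libraries 1 to 4, so libraries 1 and 3 had the lowest enzyme medians and library 4 the highest. The summed level of the 9 COPI coat genes was 119, 229, 167 and 309.5 in labelled libraries 1 to 4, against 372, 333, 311 and 285 in controls 1 to 4, in the order of the enzyme sums among the labelled libraries. Without labelled libraries 1 and 3 the median fold change of the 44 members was -0.044, beside 0.0052 for all genes, and 25 of 44 were negative. Leaving out labelled library 4 alone called 10 members lower (Arcn1, Cope, Copz2, Lman1, Mcfd2, Sec13, Sec23b, Tmed10, Tmed11 and Tmed3) and none higher, when 1366 genes were called higher and 1200 lower in all.

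**Figure D4:**
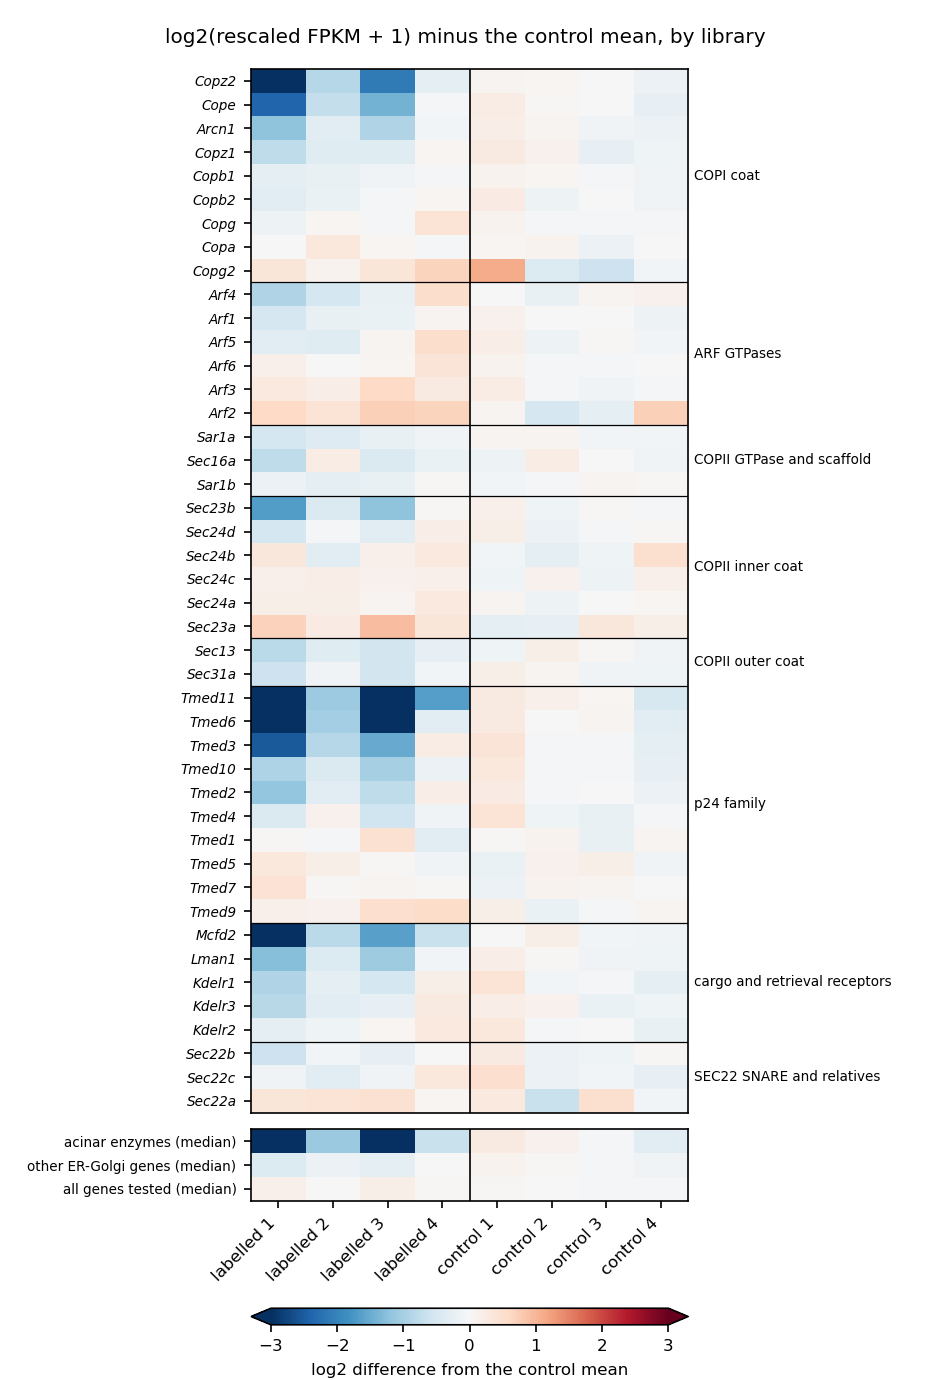
Log2(rescaled FPKM + 1) minus the mean of the 4 controls, by library (columns, labelled Gata6 lox/lox left), for the 44 tested genes by role, with the medians of the acinar enzymes, other ER-Golgi genes and all genes below. Blue marks lower values on the scale as deposited, and labelled libraries 1 and 3 are bluest where the acinar enzymes are, with colours saturated beyond 3 in either direction.

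Abundant members had the most negative fold changes. Across the 44 members, Spearman's rho between control level and fold change was -0.81, and across all 11860 genes it was -0.53. The control level enters both quantities and the points share 8 libraries, so these are descriptions only. The 6 members with a control mean of at least 80 rescaled FPKM (Tmed6, Cope, Mcfd2, Tmed2, Tmed11 and Tmed3) were all negative as deposited, with a median of -1.35, beside -0.89 for the 435 genes of that level, of which 91.5% were negative. With libraries scaled to implied totals, Tmed6, Mcfd2 and Tmed11 of these 6 stayed negative. Among the 12 members at 20 to 80, 11 were negative and the median was -0.37, beside -0.54 and 79.8% for 970 genes. Among the 26 members under 20, 12 were negative with a median of 0.045, beside 0.16 and 36.6% for 10455 genes. The level classes were set after the values were seen.

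**Figure D5:**
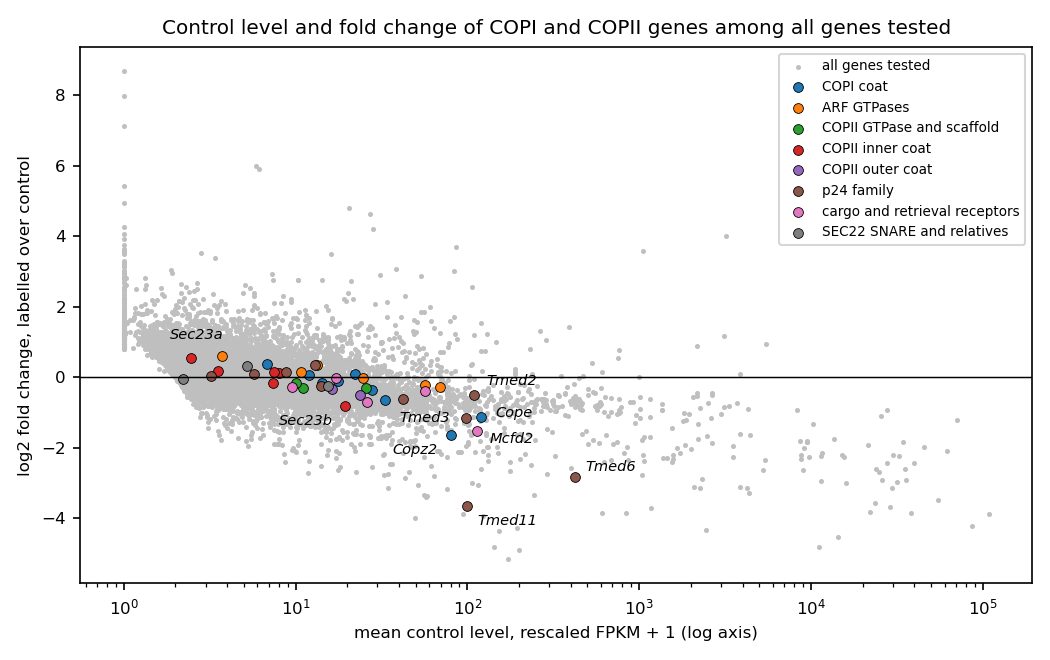
Mean control level (rescaled FPKM + 1, log axis) against log2 fold change, labelled Gata6 lox/lox over control, for all genes tested (grey) and the 44 members (coloured by role). Points fall lower toward the right in both sets on the values as deposited, Spearman's rho -0.81 for the members.

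Several of these genes are known targets of the unfolded protein response, a signalling system that raises ER and transport capacity. Its factor XBP1 binds the element TGACGTG, and ATF6 binds a longer element written as CCAAT, 9 bases and CCACG. In the RefSeq windows of 40 matched members, searched on both strands, TGACGTG occurred in 7 (17.5%), against 2.22% of 27025 genes. The 7 stretches are shown with the element in capitals, which reads CACGTCA where it lies on the other strand.
Arf1, chr11:59228223-59228263, minus strand: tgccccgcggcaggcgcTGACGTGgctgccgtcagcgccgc
Copb1, chr7:114254684-114254724, minus strand: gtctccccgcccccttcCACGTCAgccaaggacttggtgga
Copb2, chr9:98563708-98563748, plus strand: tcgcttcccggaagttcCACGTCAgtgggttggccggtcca
Kdelr3, chr15:79516362-79516402, plus strand: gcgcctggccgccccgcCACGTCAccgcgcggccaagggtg
Sec16b, chr1:157506735-157506775, plus strand: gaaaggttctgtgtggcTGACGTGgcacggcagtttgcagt
Sec23a, chr12:59011988-59012028, minus strand: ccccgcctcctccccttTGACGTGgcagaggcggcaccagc
Sec24d, chr3:123267453-123267493, plus strand: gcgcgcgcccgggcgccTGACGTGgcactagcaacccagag
Their genes had fold changes of -0.21 for Arf1, -0.16 for Copb1, -0.12 for Copb2, -0.29 for Kdelr3, 0.55 for Sec23a and -0.17 for Sec24d, and Sec16b was untested. Tmed6, Copz2, Mcfd2, Tmed3 and Cope, the 5 lowest fold changes among the genes with a window, are not in this group. The longer ATF6 element occurred in 0 of 40 members and in 0.137% of all genes, and its first part, CCAAT, in 16 (40%), against 41.1% of all genes. An element in a window does not show that a factor acts there. Windows for Arcn1, Arf6, Kdelr2, Lman1, Tmed2, Tmed7 and Tmed11 were not analysed here.

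The other genes of ER-Golgi transport (tethers, Rab GTPases, SNAREs, TRAPP and COG subunits, further receptors and regulators) were described in the same way. Of 76 genes found, 73 were tested and none was called, while 15 (20.5%) had an unadjusted p under 0.05, 2 higher and 13 lower, beside 30.1% of all genes. Fold changes were negative for 53 of 73, with a median of -0.24 as deposited, which became 0.61 or 0.91 with libraries scaled to equal sums or to implied totals. Leaving out labelled library 4 called 2 of them higher and 11 lower, when it called 1366 higher and 1200 lower of all 11860 genes. Groups did not overlap for 11 genes lower and 3 higher in the labelled libraries, or 15.1% and 4.11%, beside 7.62% and 10.9% of all genes. Among the lowest fold changes, Arfgap3, an ARF GTPase-activating protein, had 3.17, 18.4, 6.96 and 23.1 rescaled FPKM in labelled libraries 1 to 4, against 26.9, 21.6, 22.1 and 18.9 in controls 1 to 4. Labelled library 4 lay within the control range (log2 fold change -1.05 ± 0.52 SE, adjusted p 0.199). Bet1, an ER-Golgi SNARE, had 6.35, 16.8, 9.18 and 23.2 rescaled FPKM in labelled libraries 1 to 4, against 25.8, 29.1, 23.9 and 27.2 in controls 1 to 4, and Gorasp2, a Golgi stacking protein, had 12.1, 23.6, 15.8 and 28.8 rescaled FPKM in labelled libraries 1 to 4, against 50.2, 39.7, 33.2 and 32.7 in controls 1 to 4. The groups did not overlap for either gene, with log2 fold changes of -1.03 ± 0.35 SE and -0.97 ± 0.29 SE and adjusted p-values of 0.122 and 0.109. On the positive side, Cnih4, a cargo receptor of the cornichon family, had 7.50, 4.04, 8.69 and 3.69 rescaled FPKM in labelled libraries 1 to 4, against 2.71, 2.75, 1.16 and 2.25 in controls 1 to 4. All labelled libraries lay above all controls (log2 fold change 1.08 ± 0.29 SE, adjusted p 0.103), on 3.88 to 94.1 implied fragments. Rab6, a Golgi Rab GTPase, averaged 8.20 ± 2.35 rescaled FPKM in the labelled libraries and 4.83 ± 0.980 in the controls and also did not overlap between groups (log2 fold change 0.64 ± 0.21 SE, adjusted p 0.115). Lman2l, a lectin related to Lman1, averaged 3.12 ± 0.650 rescaled FPKM in the labelled libraries and 2.28 ± 0.363 in the controls with a log2 fold change of 0.32 ± 0.15 SE and an adjusted p of 0.198.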

How the data were processed

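Poly(A) RNA of 8 whole mouse pancreases was made into TruSeq libraries and read on a Genome Analyzer IIx sequencer, as the labels' protocols state. Gene FPKM with interval bounds were deposited by the authors for each library, and CASAVA 1.8, TopHat2 2.0.4, Bowtie, Cufflinks 2.0.1 and mm9 (NCBIM37) are named per the submitters' processing notes. Not given in the sources used here are strand, read length and how FPKM were scaled.

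The deposited FPKM were divided by 100000. The 11860 genes whose mean over 8 libraries reached 1 rescaled FPKM were tested on log2(rescaled FPKM + 1). Genes flagged in any library as having too many fragments for an estimate were left out. Entries marked as failed were not left out. They numbered 11, 10, 11 and 1 of 36448 in labelled libraries 1 to 4 and 1, 1, 0 and 1 in controls 1 to 4. All 47 members had valid estimates in the 8 libraries. The test was that of limma 3.58.1 (R 4.3.3) with an intensity trend, two-sided, with Benjamini-Hochberg adjustment over all genes and a threshold of 0.05. The fit was also run on simulated independent genes with equal spread in both groups. The changed genes, 50 of each size, had a control mean log2(rescaled FPKM + 1) above 2. Lower genes were not covered. At the residual spread of these data, 6%, 36%, 80% and 92% of log2 changes of 0.5, 1, 2 and 3 were recovered, with 5 false calls. At the spread of the controls, 32%, 68%, 90% and 96% were recovered, with 9 false calls. A member that was not called may therefore still differ between the groups. Fragments were implied from the interval widths as if these held counting error only. They are not read counts, since a wide interval of any origin gives a low number. They do not cover differences between mice. The tables hold no counts, so no count test was run. Fragments shared by paralogs are assigned by likelihood in Cufflinks, so values of close paralogs are uncertain.

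The genes and lists were chosen with earlier results of these data known. Every member is named, with values in every library for the most abundant, the most positive and the most negative tested gene of each role, and for others picked after values were seen (Tmed3, Tmed8 and Lman1). Among the other ER-Golgi genes, the 3 lowest and the 3 highest fold changes are named. Alternatives covered the pseudocount, the expression minimum, scaling, variance model, title prefix and left-out libraries. Promoter windows are those of RefSeq on GRCm38.p6, matched by symbol (Copg as Copg1). Replicate numbers follow accession order and pair nothing. Protein sequences were not analysed here.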

Additional observations from a re-analysis of the deposited data

Results flagged for a closer look

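In 4 of 94 groups of 4 libraries, 1 for each member and group, a single library stood apart from the other 3 by more than Dixon's 95% critical value, where chance gives about 1 in 20. Tmed7 was at 10.8 rescaled FPKM in labelled library 1, against 7.95 to 8.28 in the other labelled libraries. Control 1 was the high library in the other 3 cases. Arf3 was at 14.5 there, against 11.5 to 11.9 in the other controls, Arf6 at 10.6 against 9.40 to 9.59, and Copg at 11.9 against 10.6 to 10.8.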

How the results depend on the processing

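No member was called in the reported fit or in most of 23 alternatives. The exceptions were scaling to implied totals, sample weights and leaving out labelled library 4. Implied totals called 32 members higher and 1 lower, when 5436 of all 11860 genes were called higher and 25 lower. Sample weights called 2 members higher and 11 lower, when 2316 of all genes were called higher and 1478 lower. Leaving out labelled library 4 called 1366 of all genes higher and 1200 lower. Leaving out 1 library thus gave 0 to 10 members called lower. The members' median, -0.19, became 0.70 with equal sums outside the enzymes and 1.03 with implied totals. It ranged from -0.29 to -0.11 with 1 library left out. Of the other ER-Golgi genes, implied totals called 36 higher, sample weights 2 higher and 15 lower, and leaving out 1 library gave 0 to 2 higher and 0 to 11 lower, beside the counts over all genes given above for these fits. Their median, -0.24, became 0.61 with equal sums, 0.91 with implied totals and -0.092 without labelled libraries 1 and 3, and ranged from -0.32 to -0.16 with 1 library left out. Before centring on all genes, 23 of 44 members turned positive with equal sums and 25 with implied totals. The causes were not tested.

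Gata6, whose level is under the expression minimum of 5, kept its direction in the other 22 alternatives and its call in 3 of them, implied totals, sample weights and without labelled library 4. Its fold change ranged from 0.67 to 0.77 with 1 library left out, and 7 of these 8 fits lost the call (adjusted p up to 0.183). It also lost its call with a pseudocount of 0.1 (0.90) or 5 (0.38), no expression minimum (0.72), median-ratio scaling (0.63), quantile normalization (0.57), equal sums (1.50), no trend (0.72), robust variances (0.72), the title prefix as a covariate (0.71), BKD titles only (0.57), ASK and BSH titles only (0.85) and without labelled libraries 1 and 3 (0.69).

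Sign changes of single members were near 0 in most cases. Relative to all genes, equal sums gave Arf5 0.081, Kdelr2 0.078 and Tmed1 -0.11, and implied totals Arf1 0.011, Arf5 0.16, Copb2 0.047, Kdelr2 0.16 and Tmed1 -0.11. Median-ratio scaling gave Copa -0.021, Copg -0.032 and Tmed1 -0.058. Quantile normalization gave Arf1 0.045, Arf5 0.11, Sec24a -0.0034, Kdelr2 0.048, Tmed1 -0.18 and Tmed5 -0.011. Sample weights gave Arf5 0.0023 and Kdelr2 0.031, and the prefix covariate Copg2 -0.084 and Tmed1 -0.017. BKD titles gave Copa -0.052, Copg -0.037, Copg2 -0.64 and Sec22a -0.00063, and ASK and BSH titles Sec16a 0.18, Sec24b -0.34, Sec24d 0.034, Sec22b 0.014, Tmed1 -0.053, Tmed4 0.26 and Tmed7 -0.013. Without labelled libraries 1 and 3 the values were Arf4 0.0094, Arf5 0.076, Sec16a 0.0067, Sec24b -0.0084, Sec24d 0.084, Kdelr2 0.079, Tmed1 -0.20 and Tmed4 0.0065. With 1 library left out, Arf5 ranged from -0.21 to 0.087, Copg from -0.041 to 0.14, Sec22c from -0.17 to 0.11, Kdelr2 from -0.12 to 0.090 and Tmed1 from -0.13 to 0.14. No paired analysis was possible because the replicate numbers follow accession order and the labels tie no labelled library to a control.

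Tmed11, Arf2, Copg2 and Sec23a had few implied fragments in at least 1 library, so their fold changes are uncertain. Such a low number can come from a wide interval of any origin, and the part of depth in it was not tested.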
